A study of Sus scrofa with 48 samples.

Results

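PTGDS, LCN2 and APOD encode 3 lipocalins, and their transcripts were measured in the fat that surrounds the kidneys (perirenal adipose tissue, PRAT) in 48 pigs. The members were taken by gene name, as every array spot that the scanner output names PTGDS, LCN2 or APOD, which gave 3 of 9815 named genes and 9 of 60306 spots, with 2 for PTGDS, 3 for LCN2 and 4 for APOD. PTGDS and LCN2 were chosen by their difference between diets in these same arrays, among the largest falls on the high-fat diet, so their diet differences are given as a description, with no test. The authors kept 38142 spots after quality filtering, among them 8 of the 9.

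The pigs were Large White barrows aged 132 days, with 12 pigs in each of 4 groups. They received either a high-fat high-fiber (HF) diet, with plant oils and wheat straw, or a low-fat low-fiber (LF) diet with starch as the main energy source, and both diets were offered ad libitum. Each diet was given to a line bred for low residual feed intake (RFI, RFIneg in the labels) and to one bred for high RFI (RFIpl), RFI being the feed a pig eats beyond what its growth and maintenance predict, so that low RFI pigs are the more efficient. RNA of each pig was hybridised to 1 one-colour array, on 6 slides with 8 arrays each, and each slide held 2 arrays of every group. Values are log2 of a spot's median Cy3 signal minus the array's median of that quantity, so that 0 is the level of the middle probe of an array and 1 unit is a doubling.

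Lipocalins are small secreted proteins that fold into a barrel around a greasy ligand. PTGDS, lipocalin-type prostaglandin D synthase, both converts prostaglandin H into prostaglandin D and carries retinoids and other lipids. LCN2, also called neutrophil gelatinase-associated lipocalin, binds bacterial siderophores and with them iron, and it is released by neutrophils and by fat cells. APOD, apolipoprotein D, carries arachidonic acid, progesterone and cholesterol-related ligands. In fat, prostaglandin D and its products are known as signals to adipocytes and immune cells.

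The probes that carry these measurements are 60 bases long, and the 9 spots held 6 distinct sequences. Both PTGDS spots carried one sequence and the 3 LCN2 spots another, so their spots are repeats of one measurement, whereas the 4 APOD spots carried 4 sequences. The sequences on which the diet results rest, and the overlapping APOD pair, are printed 5′ to 3′ as the scanner files hold them, in lower case, with capitals for the 55 bases that both APOD probes share.
PTGDS: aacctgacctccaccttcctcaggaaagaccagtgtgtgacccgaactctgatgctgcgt
LCN2: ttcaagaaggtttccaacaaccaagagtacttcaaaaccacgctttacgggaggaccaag
APOD A_72_P371558: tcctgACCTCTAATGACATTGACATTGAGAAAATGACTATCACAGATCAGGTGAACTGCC
APOD O13671: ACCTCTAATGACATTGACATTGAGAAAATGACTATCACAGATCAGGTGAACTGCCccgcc
The PTGDS probe was 55.0% G and C and the LCN2 probe 45.0%.

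On each of the 48 arrays all 9 spots exceeded background by the scanner's own flag, and 0 were saturated. Over pigs, the repeat spots of a sequence followed each other with Pearson's r from 0.996 to 0.999, and the SD of their difference was 0.072 for PTGDS and at most 0.104 for LCN2, on the log2 scale. Different APOD probes followed each other with r from 0.909 to 0.973. Of the 9 spots, only the APOD spot O13671 was not kept by the authors. Each gene is described below at its brightest spot, A_72_P223832 for PTGDS, O902 for LCN2 and A_72_P720378 for APOD, unless another is named. In RNA from a piece of tissue, fewer cells of a type and less RNA per cell cannot be told apart.

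Adipocyte transcripts were abundant, as the tissue's label requires, with mean levels over the diets of 10.22 (HF) and 10.14 (LF) for ADIPOQ and 8.72 (HF) and 8.84 (LF) for PLIN1 on the log2 scale. Transcripts usually made by the liver set some arrays apart. The level of albumin (ALB) ran from -1.65 to 9.11 over the 48 pigs, with medians of 0.46 in HF and 1.62 in LF pigs, and it was under 2 on 30 arrays, 17 of HF and 13 of LF pigs. With the group means removed, the r with albumin over pigs was -0.04 for PTGDS, -0.13 for LCN2 and 0.10 for APOD. The members' diet and line differences in those 30 arrays are given beside those over all pigs. For named genes that act beside the members, values are given where the call was lost.

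PTGDS showed the largest fall on the HF diet of all kept probes, its 2 spots ranking 1 and 2, where 15.5% of these probes were called lower and 8.97% higher by the thresholds given further on. In HF pigs its level ran from 1.62 over a median of 2.70 to 4.92 in the low RFI line, and from 2.002 over 2.57 to 5.94 in the high RFI line. In LF pigs the lowest, median and highest levels were 4.17, 5.73 and 7.26 in the low RFI line and 4.43, 6.28 and 7.46 in the high RFI line. Most HF pigs therefore lay below the whole LF range, but not all of them. Of 24 HF pigs, 17 were below every LF pig and 7 reached into the LF range, while 10 of 24 LF pigs were above every HF pig. In raw scanner units the medians were 1093.5 and 892 in the HF groups of low and high RFI against 6911.5 and 11723.5 in the LF groups.

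The mean PTGDS level was 3.19 ± 1.26 (SD, n = 24) in HF and 5.89 ± 0.98 (SD, n = 24) in LF pigs. The fitted difference was -2.70 on the log2 scale (SE 0.32, 95% interval -3.34 to -2.06), that is, 6.51-fold lower on the HF diet, and the repeat spot gave -2.72. Within lines it was -2.64 (low RFI) and -2.76 (high RFI), with an SE of 0.45 each. It was seen on 6 of 6 slides, from -3.31 to -1.58, and on both scan days, at -2.73 and -2.68. In the 30 arrays with albumin under 2 it was -3.25.

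**Figure D1:**
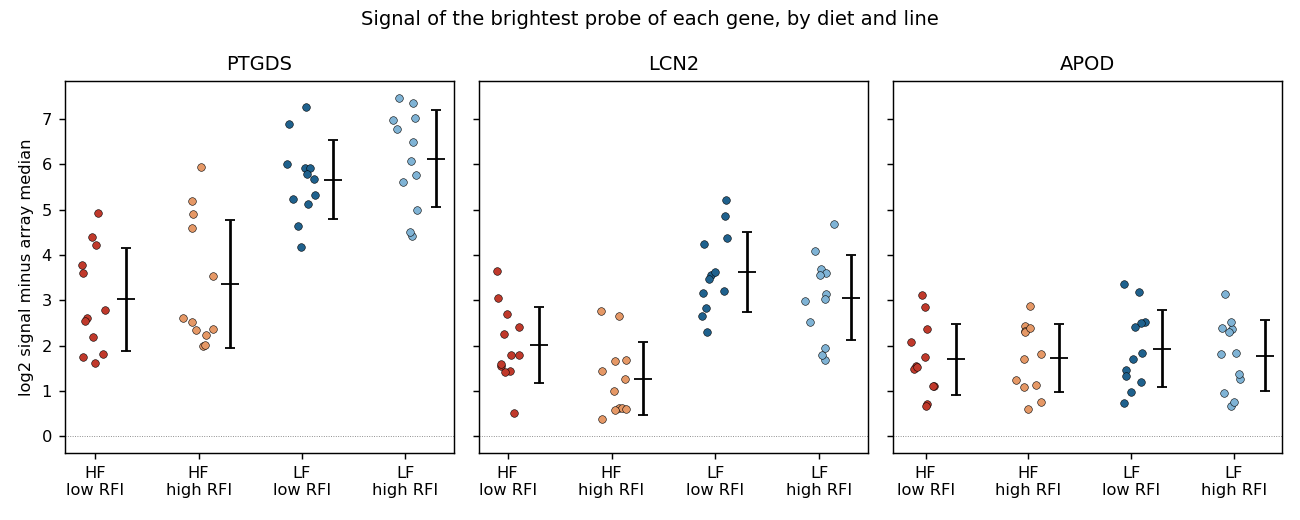
Level of PTGDS, LCN2 and APOD (log2 signal minus the array median, vertical axis) in each of 48 pigs (points) by diet and line, with the mean and SD of each group of 12. PTGDS and LCN2 lie lower in both HF groups with a partial overlap (17 and 14 of 24 HF pigs below every LF pig), and APOD spans the same range in all 4 groups.

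LCN2 was also lower on the HF diet, with its 3 spots at ranks 9, 10 and 11. Its level ran from 0.51 over a median of 1.80 to 3.64 in HF pigs of low RFI, and from 0.39 over 1.13 to 2.77 in HF pigs of high RFI. In LF pigs it ran from 2.30 over 3.51 to 5.21 in the low RFI and from 1.68 over 3.08 to 4.67 in the high RFI line. The diets overlapped more than for PTGDS, with 14 of 24 HF pigs below every LF pig and 7 of 24 LF pigs above every HF pig. The means were 1.65 ± 0.89 in HF and 3.34 ± 0.94 in LF pigs (SD, n = 24 each), a difference of -1.70 on the log2 scale (SE 0.24, 95% interval -2.18 to -1.21), or 3.24-fold. The repeat spots gave -1.66 and -1.69. The difference held on 6 of 6 slides, from -2.22 to -1.11, and it was -2.31 in the 30 arrays with albumin under 2.

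Between the ranks of PTGDS and LCN2 lay spots of IRAK2, a kinase of interleukin 1 receptor signalling (-2.22), of FETUIN (-1.89 and -1.74) and SULT2A1 (-1.79), which the liver makes, and of ME1, which supplies NADPH for fatty acid synthesis (-1.75), beside an unnamed spot (-1.85). The next spot below LCN2 was that of albumin itself (-1.61).

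APOD, the third lipocalin, had nearly the same level on both diets. In HF pigs it ran from 0.68 over a median of 1.54 to 3.13 in the low RFI line and from 0.61 over 1.76 to 2.87 in the high RFI line. In LF pigs it ran from 0.74 over 1.78 to 3.35 in the low RFI line and from 0.68 over 1.82 to 3.14 in the high RFI line. The 4 groups overlapped almost fully, and 1 of 24 HF pigs lay below every LF pig. The means were 1.71 ± 0.75 in HF and 1.86 ± 0.81 in LF pigs (SD, n = 24 each), with a difference of -0.15 (SE 0.22, 95% interval -0.59 to 0.30). The other APOD spots gave -0.08, -0.11 and -0.09, and slides gave -0.75 to 0.49, lower in HF on 4 of 6. In the 30 arrays with albumin under 2 the difference was -0.15.

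The comparison of lines asked whether the members differ between pigs selected for feed efficiency, and it was not used to choose them. Of the 3 genes, 0 passed the test in the limma fit without a block. This test asks for raw p under 0.01, fold over 1.1 and Benjamini-Hochberg adjusted p under 0.08 over all kept probes. It called 3.6% of these probes by line, 1.77% lower and 1.83% higher in low RFI pigs. LCN2 was the 1 gene with an unadjusted p under 0.05. With the replicate number of the labels as a block, which also takes up slide differences, LCN2 passed (adjusted p = 0.0568 in limma). Its mean was 2.82 ± 1.18 for low RFI against 2.17 ± 1.25 for high RFI (SD, n = 24 each), 0.65 higher in low RFI pigs on the log2 scale (SE 0.24, 95% interval 0.16 to 1.14), with a raw p of 0.00982 and an adjusted p of 0.166 from limma. The difference was 0.74 on the HF diet (adjusted p = 0.454) and 0.56 on the LF diet (adjusted p = 0.879), and it was above 0 on 5 of 6 slides, from -0.04 to 1.21. In the 30 arrays with albumin under 2 it was 0.18 (adjusted p = 0.931). These arrays were of 6 low and 11 high RFI pigs on the HF diet, and of 6 and 7 on the LF diet. Whether this value differs from that over all pigs was not tested.

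PTGDS had a line difference of -0.40, low minus high RFI (SE 0.32, 95% interval -1.03 to 0.24, adjusted p = 0.681), the opposite sign to LCN2, and slides ran from -1.15 to 0.49. In the 30 arrays with albumin under 2 the PTGDS line difference was -0.87 (adjusted p = 0.587). APOD differed by 0.07 (SE 0.22, 95% interval -0.38 to 0.51, adjusted p = 0.951), and by 0.08 in the 30 arrays (adjusted p = 0.973). Whether the diet difference depended on the line was tested by the interaction. It was 0.12 for PTGDS (95% interval -1.16 to 1.39), 0.18 for LCN2 (-0.80 to 1.15) and -0.18 for APOD (SE 0.44), each with an adjusted p of 1.0 in limma, and 0% of the kept probes were called by limma or by the two-way ANOVA, with 826 of 38142 at an unadjusted p under 0.05. For PTGDS this interval still admits an interaction of over 1 log2 unit, so a dependence of that size was not excluded with 12 pigs a group.

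**Figure D2:**
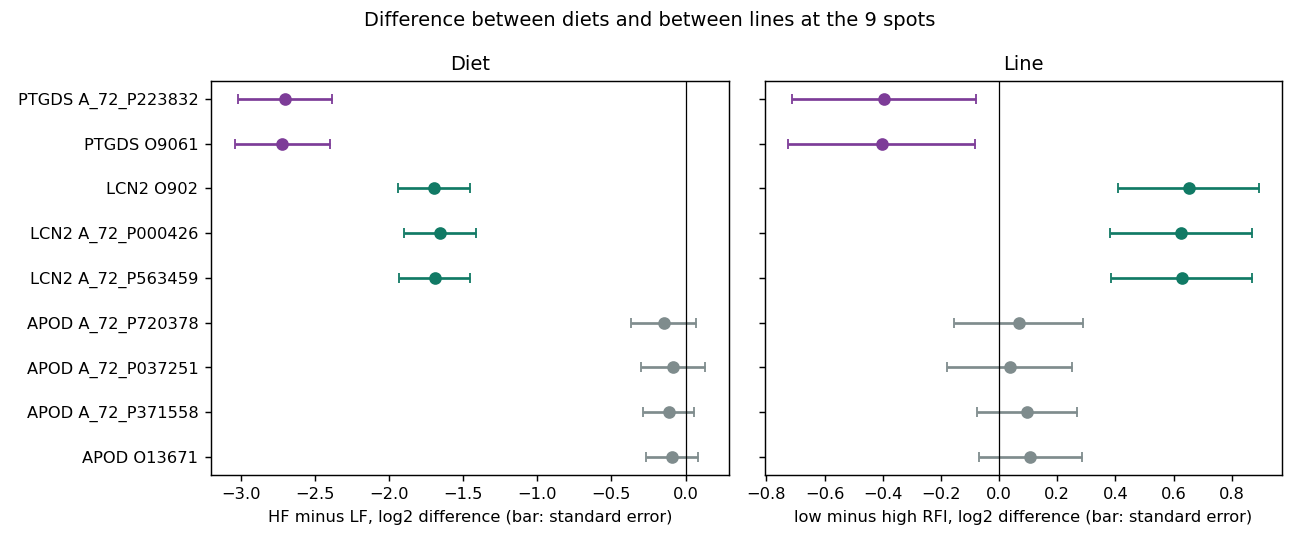
Fitted log2 difference at each of the 9 spots (points, bars 1 SE) between diets, HF minus LF (left), and between lines, low minus high RFI (right). By diet the spots of a gene lie together, at -2.70 and -2.72 for PTGDS, -1.70 to -1.66 for LCN2 and -0.15 to -0.08 for APOD. By line no spot passed the test in this fit, which had no block.

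PTGDS and LCN2 also varied together from pig to pig inside the groups. With the mean of its diet and line group taken from each value, Pearson's r was 0.728 over 48 pigs (permutation p = 1e-05, the smallest that 100000 permutations within groups can give, two-sided, adjusted p = 0.00021 over 21 relations) and Spearman's rho was 0.708 (p = 1e-05, adjusted p = 0.00021). Without the 2 pigs farthest from the median of PTGDS, r was 0.681. It was 0.774 among HF and 0.700 among LF pigs, 0.782 and 0.738 on the scan days, and 0.74 in the 30 arrays with albumin under 2. The relations with APOD did not pass. Its r was -0.04 with PTGDS (permutation p = 0.778, adjusted p = 0.859, rho -0.02, p = 0.898, adjusted p = 0.94) and 0.03 with LCN2 (permutation p = 0.859, adjusted p = 0.859, rho 0.05, p = 0.754, adjusted p = 0.833). Without the 2 pigs farthest from the median, of PTGDS for the former and of LCN2 for the latter, these were -0.08 and 0.04. Over the scan days they were 0.01 and -0.07 with PTGDS and 0.03 and 0.02 with LCN2. Below, the 2 pigs left out are those farthest from the median of the member in the relation.

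**Figure D3:**
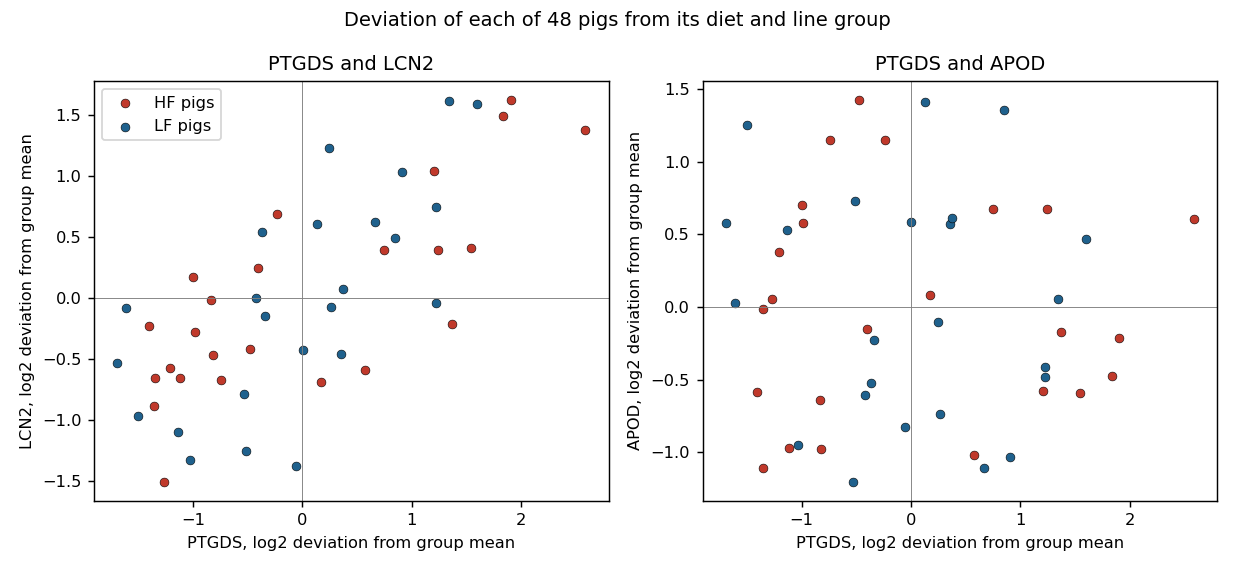
Deviation of each of 48 pigs from the mean of its diet and line group, in log2 units, for PTGDS (horizontal) against LCN2 (left) and APOD (right), with points coloured by diet. PTGDS and LCN2 deviations rise together on both diets (r 0.728), and those of APOD form a level cloud (r -0.04).

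Both PTGDS and LCN2 followed the fat-cell transcripts of a pig. With the mean of 11 adipocyte markers, r was 0.496 for PTGDS (permutation p = 0.00047, adjusted p = 0.00214, rho 0.480, p = 0.00094, adjusted p = 0.00395) and 0.506 for LCN2 (permutation p = 0.00051, adjusted p = 0.00214, rho 0.498, p = 0.00053, adjusted p = 0.00278). With 21 genes of lipid synthesis, r was 0.579 for PTGDS (permutation p = 7e-05, adjusted p = 0.000735, rho 0.571, p = 9e-05, adjusted p = 0.000945) and 0.526 for LCN2 (permutation p = 0.0002, adjusted p = 0.0014, rho 0.4997, p = 0.00043, adjusted p = 0.00278). Leaving out the 2 pigs farthest from the median gave r of 0.471 and 0.552 with the adipocyte markers and of 0.534 and 0.473 with lipid synthesis. The values were larger among HF than among LF pigs, at 0.713 and 0.257 for PTGDS with adipocyte markers, and whether they differ between the diets was not tested. Within scan days these 4 relations had r between 0.396 and 0.669.

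LCN2 was first described in neutrophils, but its relation with their markers did not pass. Its r with 7 neutrophil markers was 0.036 (permutation p = 0.811, adjusted p = 0.859, rho 0.068, p = 0.653, adjusted p = 0.833), with -0.137 and 0.269 on the scan days, and 0.114 without the 2 pigs. PTGDS was negative with 10 macrophage markers, at r -0.361 (permutation p = 0.0185, adjusted p = 0.0573, rho -0.318, p = 0.0368, adjusted p = 0.0966), as was LCN2 with 4 mesothelium markers, at -0.349 (permutation p = 0.0191, adjusted p = 0.0573, rho -0.342, p = 0.0227, adjusted p = 0.0794), and neither passed the correction. Scan days gave -0.433 and -0.284 for the former and -0.285 and -0.396 for the latter, and r without the 2 pigs was -0.294 and -0.320. No relation of APOD with these lists passed the correction, the lowest adjusted p being 0.327.

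Genes were then ranked by their correlation with each member over pigs, as a description with no p, since those named were chosen by the correlation itself. Among the highest for PTGDS were GAPDHS (r 0.78), BLVRB (0.76), GAPDH (0.76), SHISA4 (0.76), ALDOA (0.76), FNDC8 (0.74) and VDAC1 (0.74). GAPDH and ALDOA are enzymes of glycolysis, and BLVRB reduces biliverdin. Whether the GAPDHS probe, named for a testis form of the enzyme, also binds GAPDH RNA was not tested. The GAPDH relation was seen in both diets, at 0.78 among HF and 0.74 among LF pigs, and GAPDH had a diet difference of the same sign as PTGDS (-0.35). The lowest were DMTF1 (-0.66), KIAA1551 (-0.65), DNAJC13 (-0.65) and C3ORF63 (-0.64).

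For LCN2 the highest were C1H9ORF16 (0.78), GAPDHS (0.78), SHISA4 (0.76), CALM3 (0.76), C9ORF16 (0.75), GCDH (0.74), PFDN1 (0.74) and RNLS (0.73), where C9ORF16 is the human name of the gene C1H9ORF16, so that 2 of the 8 are one gene. CALM3 encodes calmodulin and GCDH a dehydrogenase of lysine breakdown. GAPDHS and SHISA4 stood among the highest 8 of both PTGDS and LCN2. The lowest were KCNQ5 (-0.61), ARSJ (-0.57), UBR2 (-0.57) and TBC1D10A (-0.56). In number, 634 of 9814 genes (6.46%) had an r beyond 0.5 in size with PTGDS and 547 (5.57%) with LCN2.

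APOD stood apart here too, with 9 genes (0.092%) beyond 0.5 in size. Its highest were GTF2F2 (0.61), a subunit of a general transcription factor, LPGAT1 (0.55), CCDC50 (0.51), FLRT3 (0.51), STIM1 (0.50), PCM1 (0.50), SMAD7 (0.49) and DHRS1 (0.49). Its lowest were TMSB10 (-0.54), ENOSF1 (-0.51), ARHGDIB (-0.50) and HS3ST6 (-0.49). The GTF2F2 relation differed in size between diets, at 0.40 among HF and 0.77 among LF pigs, a difference that was not tested.

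**Figure D4:**
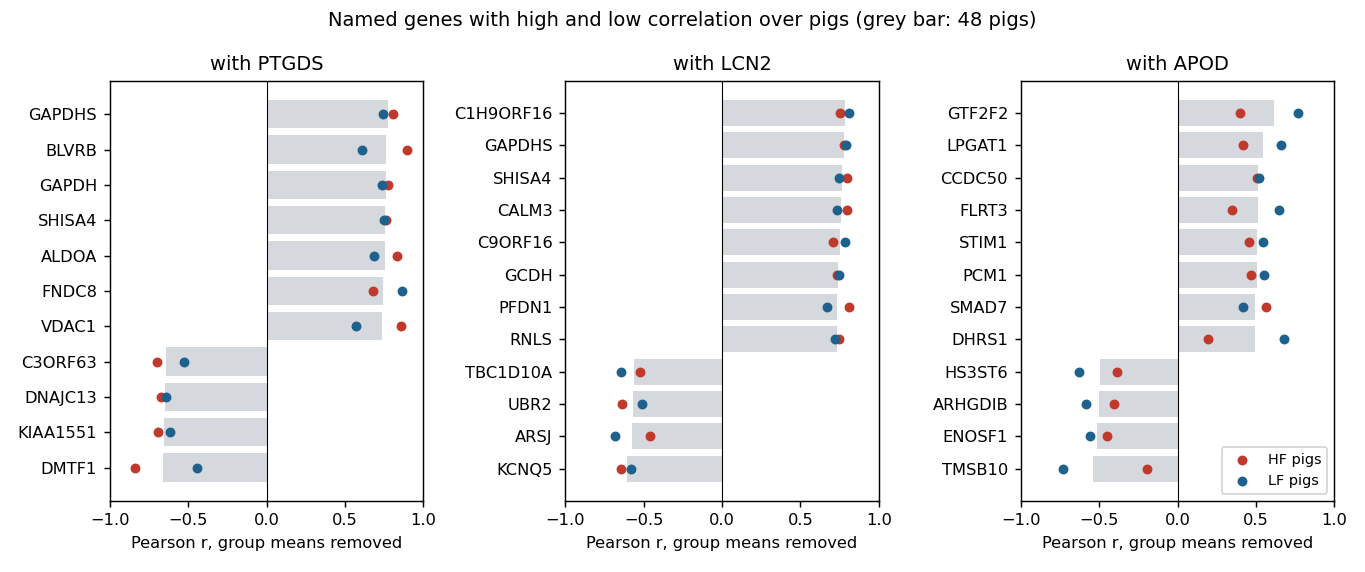
Pearson's r over 48 pigs, group means removed, of the genes named in the text as highest and lowest for PTGDS, LCN2 and APOD (grey bars), with r among HF pigs and among LF pigs as points. The highest bars reach 0.78 for PTGDS and LCN2 and 0.61 for APOD.

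The surroundings of the members were described with 9 lists of genes that act beside them, of which 131 of 175 genes were measured. By diet, 32 of the 131 were lower and 9 higher in HF pigs, against 19.4% lower and 6.23% higher of the 9815 genes named on the array. Of these 32, 17 were among the 21 genes of lipid synthesis, so most of the falls were in that list. The split into lower and higher depends on the scaling. Centring on the spike-in transcripts moved the median diet difference of all kept probes from -0.02 to 0.10 and gave 16 lower and 22 higher. In the 30 arrays with albumin under 2 the counts were 38 lower and 8 higher, where 17.6% of all kept probes were called lower and 7.29% higher. For spike-in centring the share over all probes is not given. Counts under it, here and below, cannot be told apart from its shift of all probes. By line, 3 were lower and 2 higher in low RFI pigs, against 1.42% and 1.96%.

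Among 25 genes that make or break down prostaglandins, 1 was lower and 2 were higher in HF pigs, with a median difference of -0.07 against -0.05 over all genes. PTGS2, the inducible cyclooxygenase that makes the substrate of PTGDS, rose by 0.66 (SE 0.13, adjusted p = 0.000253 in limma), from -0.71 ± 0.39 in LF to -0.05 ± 0.56 in HF pigs (SD, n = 24 each). TBXAS1, thromboxane synthase, rose by 0.38 (adjusted p = 0.00254), and AKR1B1, an aldose reductase that can form prostaglandin F, fell by 0.53 (adjusted p = 3.4e-06). The sign and call of these 3 held under spike-in centring and in the 30 arrays. PTGS1, the constitutive cyclooxygenase, differed by 0.10 (adjusted p = 0.463), PTGES, a prostaglandin E synthase, by 0.03 (adjusted p = 0.603) and HPGD, which degrades prostaglandins, by 0.23 (adjusted p = 0.062, raw p above its threshold). HPGDS, the other prostaglandin D synthase, was not analysed here. By line, FAAH, which hydrolyses fatty acid amides, was 0.83 higher (adjusted p = 0.000108) and PLA2G7, a lipoprotein phospholipase, fell by 0.44 (adjusted p = 0.0107) in low RFI pigs against high RFI pigs. FAAH was also called in the 30 arrays (0.86, adjusted p = 0.0195) and PLA2G7 was not (-0.36, adjusted p = 0.423). Over the list, spike-in centring gave 1 lower and 4 higher by diet, and the 30 arrays gave 5 lower and 3 higher.

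Of 5 prostanoid receptors measured, 2 were lower in HF pigs. TBXA2R, the thromboxane receptor, fell by 0.93 (adjusted p = 6.46e-07), from 4.96 ± 0.52 in LF to 4.02 ± 0.39 in HF pigs (SD, n = 24 each). PTGDR, the receptor of prostaglandin D, fell by 0.25 (adjusted p = 0.0227), a call lost under spike-in centring (adjusted p = 0.287) and in the 30 arrays (adjusted p = 0.111). The mean level of PTGDR was -0.25, below the middle probe. PTGDR2, the other receptor of prostaglandin D, differed by -0.08 (adjusted p = 0.131). The count lower was 1 under spike-in centring and 1 in the 30 arrays.

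The list of other lipocalins had 10 measured genes, among them CRABP1, which belongs to the family of the fatty acid binding proteins. Of the 10, 2 were lower and 1 was higher in HF pigs, with a median of -0.10. C8G, a chain of complement factor 8, fell by 0.78 (adjusted p = 5.43e-05), LCN6 fell by 0.14 (adjusted p = 0.0246, lost under spike-in centring at adjusted p = 0.83), and RBP4, the plasma carrier of retinol, rose by 0.24 (adjusted p = 0.0269, lost in the 30 arrays at adjusted p = 0.132). The mean level of LCN6 was -0.93, below the middle probe. ORM1 and AMBP, which the liver makes, had larger differences of -1.44 and -1.02 and large SDs (2.16 and 1.33 in HF, 2.67 and 2.30 in LF pigs), and neither passed (adjusted p = 0.0865 and 0.13). Over the list, spike-in centring gave 1 lower and 1 higher, and the 30 arrays gave 4 lower and 0 higher in limma.

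Of 19 genes for LCN2 receptors, partners and iron handling, 4 were lower and 1 was higher. The lower ones were TFR2, a transferrin receptor (-0.24, adjusted p = 0.00137), FTL, the ferritin light chain (-0.19, adjusted p = 0.00114), ACO1, the iron regulatory protein and aconitase (-0.36, adjusted p = 0.00285), and CP, ceruloplasmin (-0.33, adjusted p = 0.0211). The mean level of CP was -0.64, below the middle probe. The higher one was STEAP4, a ferrireductase (0.26, adjusted p = 0.0258). The 4 lower calls were lost under spike-in centring (adjusted p from 0.05 to 0.287), where each difference stayed below 0. In the 30 arrays CP (-0.12, adjusted p = 0.0475, fold under its threshold) and STEAP4 (0.31, adjusted p = 0.0754, raw p above its threshold) lost their calls. Over the list these settings gave 0 lower and 2 higher (spike-in) and 3 lower and 2 higher (30 arrays). SLC22A17, the LCN2 receptor, differed by 0.15 (adjusted p = 0.157), and MMP9, the gelatinase that LCN2 binds, by 0.02 (adjusted p = 0.873).

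Of 10 genes for APOD partners and cholesterol transport, 4 were lower in HF pigs, among them APOE (-0.28, adjusted p = 0.00258), LCAT, which esterifies plasma cholesterol (-0.17, adjusted p = 0.015), and BSG, a receptor of APOD (-0.15, adjusted p = 0.00106). Under spike-in centring 0 of these 3 were called in limma (adjusted p = 0.0989, 0.621 and 0.678 for APOE, LCAT and BSG), and LCAT was not called in the 30 arrays either (adjusted p = 0.891). Over the list, spike-in centring gave 1 lower and 2 higher, and the 30 arrays gave 3 lower and 0 higher.

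LCN2 is known as an acute phase protein, and 24 genes of the acute phase and of its inducers were measured, of which 1 was lower and 4 were higher in HF pigs. IL6 rose by 0.44 (adjusted p = 0.006), SOCS3, which it induces, by 0.40 (adjusted p = 0.024), IL1RN, the antagonist of interleukin 1, by 0.22 (adjusted p = 0.000267) and IL1A by 0.20 (adjusted p = 0.0273), while CRP fell by 0.29 (adjusted p = 0.00136). The mean levels of IL6 (-0.42) and IL1A (-0.96) were below the middle probe. LCN2 thus had the direction of CRP and the opposite direction to the 4 higher genes. Genes of the list that were not called lay on both sides of 0. C3 (-0.65) and SAA3 (-0.39) were below it, and IL1B (0.44) and CCL2 (0.32) above it. In the 30 arrays SOCS3 and CRP were called and the other 3 were not (adjusted p = 0.0577, 0.0466 and 0.103 for IL6, IL1RN and IL1A, with raw p or adjusted p above its threshold), and spike-in centring removed the call of CRP (adjusted p = 0.0715). Over the list, spike-in centring gave 0 lower and 9 higher, and the 30 arrays gave 1 lower and 3 higher. By line, NFKBIA, an inhibitor of NF-kappaB, fell by 0.28 in low RFI pigs (adjusted p = 0.0713), and in the 30 arrays it was not called (-0.12, adjusted p = 0.823).

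Lipid synthesis was the list with the most falls, with 17 of 21 genes lower and 0 higher in HF pigs in limma (also 0 higher at an unadjusted p under 0.05) and a median of -0.39. These counts are for the brightest kept probe of each gene. LPIN1 differed by -0.03 at that probe, while 2 of its 8 kept probes were called higher. Among the genes called lower, FADS2 (-1.23), GPAM (-0.60) and IDH1 (-0.42) had mean levels below the middle probe, with 1 kept probe each. ME1 fell by 1.25 (adjusted p = 6.31e-06), ACACA, acetyl-CoA carboxylase, by 0.90 (adjusted p = 1.66e-05), ACLY, ATP citrate lyase, by 0.93 (adjusted p = 3.81e-05) and the elongase ELOVL5 by 0.49 (adjusted p = 5.89e-05). With spike-in centring 12 of 21 were lower, and in the 30 arrays 19 of 21. By line, ELOVL6 was lower in low RFI pigs (-0.55, adjusted p = 0.0341), the one call by line in this list, also made in the 30 arrays (-0.57, adjusted p = 0.043).

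Of 12 genes of the glucocorticoid response, PDK4, a kinase that blocks pyruvate oxidation, rose by 0.83 on the HF diet (adjusted p = 0.00627). In the 30 arrays the PDK4 difference was 0.86 and was not called (adjusted p = 0.0417, raw p above its threshold). By line, MT1A, a metallothionein, was 1.67 higher in low RFI pigs (adjusted p = 0.044). In the 30 arrays the MT1A difference was 1.71 and was not called (adjusted p = 0.354). Under spike-in centring 4 of the 12 were higher by diet. Of 5 fatty acid binding proteins, intracellular relatives of the lipocalins, FABP1 alone was called. It fell by 1.31 (adjusted p = 0.0359), and in the 30 arrays with albumin under 2 its difference was -0.32 (adjusted p = 0.325). The two-way ANOVA and spike-in centring called 0 genes of this list, and the 30 arrays gave 2 lower. FABP1 is a liver protein, and its SD was 1.21 in HF and 2.19 in LF pigs.

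**Figure D5:**
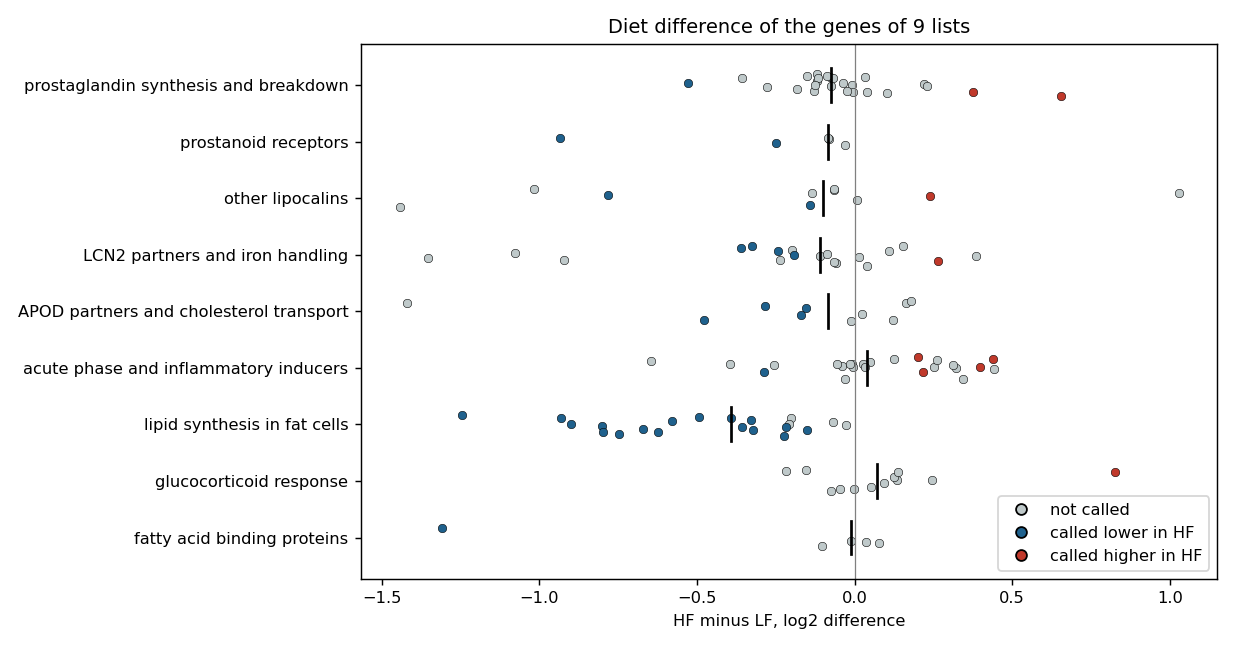
Diet difference, HF minus LF in log2 units (horizontal axis), of each measured gene of the 9 lists (points; blue called lower, red called higher, grey not called), with a black bar at the median of each list. Most lists lie on both sides of 0, and in lipid synthesis 17 of 21 genes were called lower, with a median of -0.39.

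Markers of other cell types moved with the diet in part. Of 10 macrophage markers, 8 were higher in HF pigs, by 0.36 to 0.81 on the log2 scale, and 0 were lower even at an unadjusted p under 0.05, and in the 30 arrays with albumin under 2 the count was 9. The mean level of the 10 markers ran from 1.996 over a median of 3.37 to 4.42 in HF and from 1.69 over 2.79 to 4.08 in LF pigs, so the diets overlapped widely. Of 11 adipocyte markers, 4 were lower, LEP (-0.94, adjusted p = 5.33e-06), CIDEA (-0.42), CIDEC (-0.24) and PPARG (-0.19). Of all 9815 named genes, 19.4% were called lower and 6.23% higher. The mean level of the 11 markers ran from 8.38 to 8.88 in HF and from 8.50 to 9.09 in LF pigs. Of the 4 kept PPARG probes, 2 were called lower and 0 higher. The paper reports the opposite direction for PPARG by qPCR in this fat depot, higher on the HF diet. The reason for this disagreement was not tested. Spike-in centring turned the adipocyte counts to 2 lower and 1 higher, and the 30 arrays gave 6 lower. The part of these markers in the falls of PTGDS and LCN2 was not tested.

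The other lists gave few calls with median centring. Higher in HF pigs were 1 of 7 neutrophil markers (FCGR3B, 0.38), 1 of 7 T and B cell markers (PTPRC, 0.21) and 1 of 8 endothelium markers (CLDN5, 0.30), and 1 of 2 kidney markers measured was lower (AQP2, -0.63). Under spike-in centring the higher counts were 5 of 7 T and B cell, 4 of 8 endothelium, 2 of 10 fibroblast, 1 of 6 adrenal and 10 of 10 macrophage markers. The 30 arrays gave 2 of 7 T and B cell markers higher, 0 endothelium markers called, and 1 adrenal and 1 neutrophil marker lower. The kidney list is nearly void, since 8 of its 10 genes were not measured. With median centring neither limma nor the two-way ANOVA called a gene among 10 fibroblast, 4 mesothelium, 6 adrenal, 4 red blood cell and 5 muscle markers, where 1, 1, 1, 0 and 3 genes had an unadjusted p under 0.05. The mean level of the 7 neutrophil markers ran from 1.30 over a median of 2.04 to 4.07 in HF and from 1.19 over 1.92 to 2.46 in LF pigs.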

How the data were processed

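PRAT RNA of 48 pigs was hybridised to Agilent porcine one-colour arrays. The scanner files hold spot intensity values that the authors made with Agilent Feature Extraction 10.7.3.1 and deposited without normalization between arrays, with other columns of 0 or 1 flags per spot. The authors filtered spots, took log2(Cy3) and subtracted each array's median, with R 2.10.0 per the submitters' notes, and deposited the log2 values of 38142 probes. Each deposited row matched 1 spot within 1e-06 but only 2 rows carried that spot's name, so identities came from the scanner files. Probe sequences and names are those of the files, and 20090 kept probes could be given a symbol (16302 by name and 1716 by accession through RefSeq tables, 2072 by name alone), for 9815 genes at their brightest probe. No coordinates are used.

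Log2 of the median signal minus the array median over non-control probes was fitted with limma 3.58.1 (R 4.3.3) with diet, line and interaction, over all 48 arrays with 44 residual degrees of freedom. Calls needed raw p under 0.01, fold over 1.1 and Benjamini-Hochberg p under 0.08. Tested on simulated data of 38142 probes for the diet contrast, 95 of 100 changes of 0.5 and 100 of 100 of 1.0 log2 were recovered, with 19 false calls. Correlations used 100000 permutations within groups (SciPy 1.17.1, NumPy 2.4.6, pandas 2.3.3, Python 3.11.15), with adjusted p under 0.05 as threshold. Replicates are pigs. The median signal of kept probes was 382 to 638 per array against a background of 23 to 33, and the number of arrays limits the precision. Members and lists were chosen with earlier results of these data known. Named were all member probes, the called genes of each list (or the 4 of lowest diet p where over 6), 11 fixed genes, and the 8 highest and 4 lowest covarying genes. ELOVL6, LPIN1, CRABP1, C3, SAA3, IL1B, CCL2, the marker genes and the spots ranked between PTGDS and LCN2 were chosen after their values were seen. Alternatives were other centrings (75th percentile, kept-probe median, spike-ins, quantile, normexp with offset 50, processed signal), filters, models (slide, scan day or replicate block, no interaction, array weights, two-way ANOVA), thresholds (BH under 0.05, fold over 1.5), the mean of a gene's probes, leaving out each pig and, added after seeing the data, only arrays with albumin under 2. Tissue weights were not analysed here. A few individual gene results were left out and are not given here.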

Additional observations from a re-analysis of the deposited data

How the results depend on the processing

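The diet differences kept their sign under 16 alternatives, with ranges of -3.25 to -2.58 for PTGDS, -2.31 to -1.57 for LCN2 and -0.18 to -0.02 for APOD, and when each pig was left out in turn (PTGDS -2.82 to -2.63, LCN2 -1.77 to -1.62, APOD -0.21 to -0.08). The line difference of LCN2 ran from 0.58 to 0.72 without single pigs, with adjusted p of at least 0.0945, and its adjusted p over the alternatives ran from 0.0568 to 0.931. The correlation of PTGDS and LCN2 stayed past the threshold, at 0.705 to 0.7495 without single pigs and 0.587 to 0.774 otherwise. All member spots were above background on all 48 arrays.

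Replicate numbers are shared by the 4 groups, and all arrays of a number were on the same slide. A block by number therefore also takes up differences between slides and scan days. Every pair's correlation was over 0.1 for 3 of 12 numbers, and the lowest was -0.271. The mean over a number's pairs ran from 0.0059 to 0.3585. A pairing of the pigs by number was therefore not shown. It was not excluded either, since pairs within a line were not examined apart from pairs across lines. With the replicate number as a block, the LCN2 line difference was 0.65 with an adjusted p of 0.0568, which passes the thresholds, and the correlation of LCN2 with APOD was -0.1635. The block changed no other call among the members, and the cause was not tested.

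With only the 30 arrays with albumin under 2, the interactions turned sign, to -0.33 for PTGDS, -0.13 for LCN2 and 0.0522 for APOD, the list genes called by line were 1 lower and 1 higher, and the correlation of PTGDS with APOD was 0.0823, with the cause not tested beyond there being fewer arrays. Spike-in centring gave 16 lower and 22 higher list genes by diet, and a fold over 1.5 gave 11 lower and 2 higher by diet and 0 lower by line, being a stricter threshold. Small values near 0 turned sign elsewhere, namely the correlation of PTGDS with APOD among HF pigs alone (0.0191), that of LCN2 with APOD among LF pigs alone (-0.0134) and with slide means removed (-0.0822), and, leaving out single pigs, the PTGDS interaction (-0.0544 to 0.3538, turned in 6 of 48), the correlation of PTGDS with APOD (-0.0921 to 0.01, in 1 of 48) and that of LCN2 with APOD (-0.0188 to 0.0745, in 6 of 48).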

Other observations

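C1H9ORF16, the gene with the highest correlation with LCN2 over pigs (r 0.78, and 0.57 with PTGDS), is also the next protein-coding gene after LCN2 in the order of the RefSeq annotation of Sscrofa11.1, where the annotated spans of LCN2 and C1H9orf16 do not overlap. The place was looked up after the correlation was seen, and no test was made. On the other side, the next gene is PTGES2, a prostaglandin E synthase, with an r of 0.47 with LCN2 and 0.28 with PTGDS. Of the measured ones among 10 genes on each side, AK1 (0.66), DPM2 (0.65), PIP5KL1 (0.57), ST6GALNAC6 (0.54) and COQ4 (0.48) were high with LCN2. With PTGDS the r of these was 0.54, 0.65, 0.67, 0.40 and 0.52, so such values were not particular to LCN2. DNM1 (0.36), TRUB2 (0.27), GOLGA2 (0.21), URM1 (0.19), CIZ1 (0.17), ENG (0.15), ODF2 (0.11) and CERCAM (-0.27) were lower with LCN2. The median for LCN2 over all genes was 0.08.

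APOD was also read by 2 spots outside the name rule, one with the same 60 bases as A_72_P720378 under another name and one assigned to APOD by its accession, and these followed A_72_P720378 with r of 0.990 and 0.992 over pigs.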
